A study of Mus musculus with 12 samples.

Results

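The MCM helicase and replication licensing genes are described here in mouse embryonic stem cells (ESC): Mcm2, Mcm3, Mcm4, Mcm5, Mcm6, Mcm7, Mcm10, Cdc6, Cdt1 and Pcna. The members were chosen by gene symbol, and all 10 of 10 were found among the 19716 genes of the authors' deposited table. All 10 also passed the filter on low values, which asked for a mean of at least 1 RPKM (reads scaled to transcript length and library depth) in at least 1 column and left 10197 genes. The cells carry a doxycycline (dox)-inducible HA-Flag-AGO2 transgene and were at passages 8 to 15, in all groups alike. The 4 groups were nuclear RNA and total RNA (whole-cell RNA), each with dox at 2.5 ug/ml for 15 h or without dox. The labels list 12 libraries, 3 in each group, and do not say whether they came from separate cultures, so the p-values measure only the spread between these libraries.

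The table gives 1 mean per group and no single-library values. Levels below are therefore the authors' means, without an SD, and whether single libraries of the groups overlapped could not be seen. The residual SD of each gene was recovered from the deposited p-values. The ANOVA p-values fit 10 libraries: with dox, 3 nuclear and 2 total, and without dox, 2 nuclear and 3 total. Depth was estimated from the steps of RPKM, taken as 1 read, in genes seen in 1 library of 1 group. Each estimate rests on 19 to 23 such genes with dox and on 51 to 89 without. The estimates were 10.3 to 11.8 M reads in the dox-labelled libraries and 15.3 to 18.9 M reads in the no-dox libraries. These ranges do not overlap, so depth cannot be told apart from the dox label. The Ago2 gene itself was lower in the dox-labelled columns, 3.61-fold in nuclear and 2.66-fold in total RNA (limma, Benjamini-Hochberg adjusted p = 4.94e-07 and 7.91e-06). This goes against the label of an induced AGO2 transgene, and every direction below is that of the columns as labelled. Ago2 has 14031 exon bases, and long genes tended to be lower in the dox-labelled columns, as described below. With the exon length trend removed, its changes were log2 -0.68 in nuclear and -0.46 in total RNA, in place of -1.85 and -1.41. The cause of the lower Ago2 values was not tested. All 8 embryonic stem cell markers on the list were measured, with summed levels of 855 to 4090 RPKM. Most of this was Dppa5a, at 617 to 3390 RPKM, while Klf4 was at 4.57 to 8.58. Of the 8, 5 were called higher and 1 lower in the dox-labelled nuclear column, and 6 and 1 in total RNA. Over all tested genes these shares were 43.1% and 26.3% in nuclear RNA, and 41.5% and 22.8% in total RNA. Summed fibroblast, endoderm and mesoderm markers were at 0.158 to 0.875 RPKM, with Sox17, Sox7, Dab2 and T at or near 0. Of 6 fibroblast markers 2 were measured here, and of 5 endoderm markers 4. Summed neuroectoderm markers were at 1.72 to 2.38 RPKM. Summed trophectoderm markers were at 1.93 to 4.33 RPKM, with Cdx2 at or near 0 and Tfap2c called higher in the dox-labelled columns (2.02-fold in nuclear and 2.24-fold in total RNA). The part of other cell types in the results below was not tested.

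Before S phase the origin recognition complex (ORC), CDC6 and CDT1 load MCM2 to MCM7 onto DNA as a double ring, the step called licensing. In S phase CDC45 and GINS join the ring to form the active helicase, with MCM10 needed for its activation. PCNA is the sliding clamp that holds DNA polymerases on the template, and CDT1 is degraded on it in S phase. Embryonic stem cells spend much of their short cycle in S phase and are known for high levels of licensing factors. In bulk RNA, fewer cells in a cycle phase and less RNA per cell cannot be told apart.

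Transcripts of all 6 ring subunits were higher in the dox-labelled columns of both RNA fractions, and Mcm4 rose least. Mcm5, a ring subunit, lies at chr8:75109569-75128439 (mm10, plus strand) and was at 70.7 RPKM with dox and 18.2 without in nuclear RNA, and at 60.5 and 19.0 RPKM in total RNA. Its nuclear rise of 3.88-fold (log2 1.96, SE 0.112, limma adjusted p = 9.17e-09) was the largest of the members, and in total RNA it rose 3.18-fold (adjusted p = 6.4e-08). Both differences exceeded the moderated residual SD of log2 0.123 many times over. Mcm4, another ring subunit, lies at chr16:15623897-15637400 (minus strand) and was at 15.1, 10.3, 16.7 and 11.2 RPKM in the same order of columns. It rose 1.47-fold in nuclear RNA (log2 0.56, SE 0.128, limma adjusted p = 0.00167) and 1.49-fold in total RNA (adjusted p = 0.00148), but its direction turned with quantile normalization, to log2 -0.30 and -0.11. The 95% interval of Mcm4 in nuclear RNA, log2 0.28 to 0.83, lies below the intervals of the other ring subunits, the lowest of which starts at 1.12 for Mcm6. The contrast between subunits was not tested.

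The fold changes of the other ring subunits lay between those of Mcm4 and Mcm5, while their levels did not all do so. Mcm3 (chr1:20802968-20820312, minus strand) was at 64.8 and 22.3 RPKM in nuclear dox and no dox, and at 76.9 and 24.3 RPKM in total dox and no dox. Its rise was 2.90-fold in nuclear and 3.17-fold in total RNA (limma adjusted p = 1.5e-07 and 1.26e-07). Together with Mcm5 it thus had the largest rise in total RNA. Mcm2 (chr6:88883474-88898780, minus strand) was at 46.8 and 16.2 RPKM in nuclear RNA and 45.2 and 17.5 RPKM in total RNA. The corresponding folds were 2.89 and 2.58 (limma adjusted p = 2.26e-07 and 9.08e-07). Mcm2 and Mcm5 had the higher fold in nuclear RNA, the other 4 ring subunits in total RNA, but none of these differences passed its own test.

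Mcm7 (chr5:138164583-138172422, minus strand) was at 69.9 and 26.0 RPKM in nuclear RNA and 77.2 and 26.6 RPKM in total RNA. It had the smallest recovered residual SD of the members, log2 0.042, and rose 2.68-fold and 2.90-fold (SE 0.0912 in each, limma adjusted p = 2.41e-08 and 2.69e-08). With quantile normalization its nuclear call ended, at log2 0.19 (adjusted p = 0.0886 by limma). Mcm6 (chr1:128331590-128359664, minus strand) was at 23.7 and 9.07 RPKM in nuclear RNA and 24.6 and 8.48 RPKM in total RNA. Its rises of 2.61-fold and 2.90-fold were close to those of Mcm7, from levels about as low as those of Mcm4.

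The subunits join the ring in equal numbers as proteins, and the levels of their transcripts per length are set side by side here. Protein was not measured, so these levels do not show the balance of the subunits in the ring. Without dox the highest of the 6 was 2.87 times the lowest in nuclear RNA and 3.14 times in total RNA, and the lowest was Mcm6. In the dox-labelled columns this ratio was 4.68 and 4.62, and the lowest was Mcm4. The share of Mcm4 in the summed RPKM of the 6 went from 10.1% to 5.20% in nuclear RNA and from 10.5% to 5.55% in total RNA. In the order of nuclear dox levels Mcm5, Mcm7 and Mcm3 followed each other by log2 0.02 and 0.11, each less than the larger residual SD of the pair. Mcm2, Mcm6 and Mcm4 came next, by gaps of log2 0.47, 0.98 and 0.65. In nuclear no dox the order was Mcm7, Mcm3, Mcm5, Mcm2, Mcm4 and Mcm6, and each gap, the smallest of log2 0.17, was over the SD. This SD is that of a single gene between libraries. It does not measure the error of setting levels of different genes side by side, so the order was not tested.

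**Figure D1:**
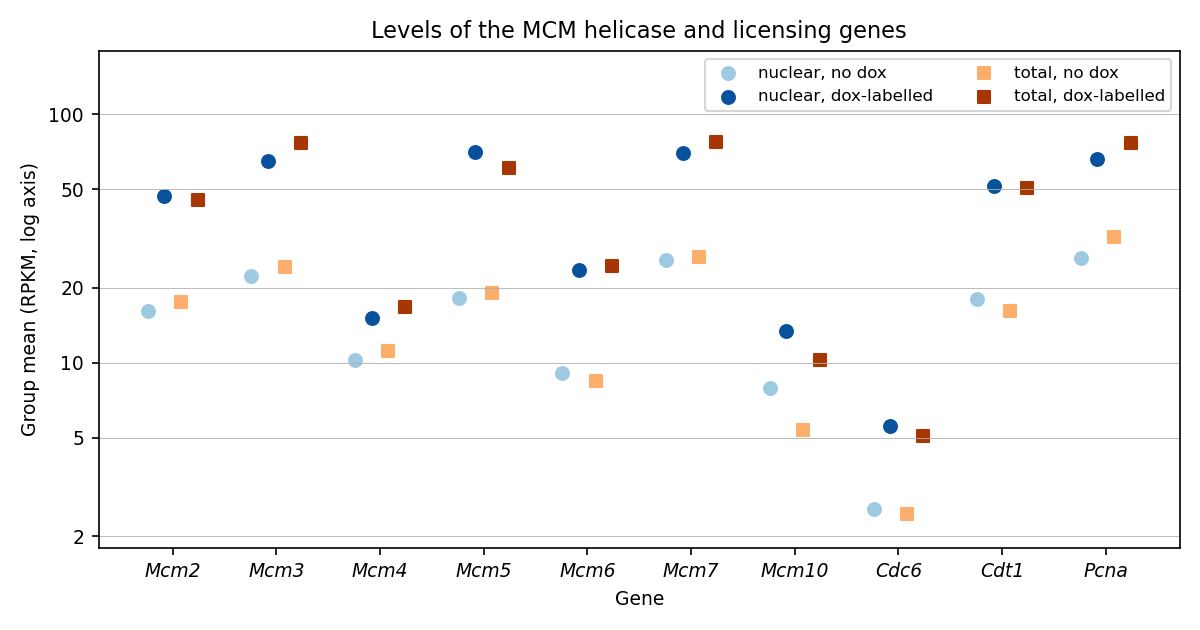
Group means of the 10 genes in RPKM on a log axis, with circles for nuclear and squares for total RNA, light for no dox and dark for the dox-labelled columns. Each dark point lies above its light partner, with the closest pairs for Mcm4 (15.1 against 10.3 RPKM in nuclear RNA), and Cdc6 is lowest throughout. No error bars are drawn because the table holds means alone.

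The loaders were also higher in the dox-labelled columns. Cdt1, which brings the ring to ORC and CDC6, lies at chr8:122568015-122573554 (plus strand). It was at 51.5 and 18.0 RPKM in nuclear dox and no dox, and at 50.7 and 16.2 RPKM in total RNA. It rose 2.86-fold and 3.14-fold (log2 1.52 and 1.65, SE 0.111, limma adjusted p = 8e-08 and 6.4e-08). Cdc6, the ATPase that joins ORC at origins, lies at chr11:98907801-98923940 (plus strand) and had the lowest level of the members in every column. Its means were 5.59 and 2.58 RPKM in nuclear RNA and 5.08 and 2.46 RPKM in total RNA. These are rises of 2.17-fold and 2.06-fold (SE 0.137 on the log2 scale, limma adjusted p = 9.36e-06 and 2.07e-05). At its exon length this corresponds to an estimated 197 to 327 reads per library, against 1798 to 4033 for Mcm7. Exon length is here the union of annotated exons, whereas depth was estimated with the longest transcript of a gene. The read estimates may therefore run too high.

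Mcm10 and the clamp rose as well. Mcm10 (chr2:4989714-5012791, minus strand) is no part of the ring. It was at 13.4 and 7.89 RPKM in nuclear RNA and at 10.3 and 5.36 RPKM in total RNA. It rose 1.70-fold and 1.92-fold (log2 0.77 and 0.94, SE 0.129, limma adjusted p = 0.000147 and 3.12e-05), after Mcm4 the smallest rise, and with quantile normalization its nuclear change was log2 0.00. Pcna (chr2:132249162-132253314, minus strand) was at 66.3 and 26.3 RPKM in nuclear RNA and 76.5 and 32.0 RPKM in total RNA. It rose 2.52-fold and 2.39-fold (SE 0.123, limma adjusted p = 6.3e-07 and 1.52e-06), and its nuclear call too ended with quantile normalization, at log2 0.11. Without dox Pcna had the highest level of the 10 genes in both fractions; in nuclear RNA its lead over Mcm7, log2 0.02, was within the residual SD.

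In all, 10 of 10 members passed as higher and 0 as lower in each fraction (limma, called at an adjusted p below 0.05 after Benjamini-Hochberg correction). Over all tested genes the called shares were 43.1% higher and 26.3% lower in nuclear RNA, and 41.5% higher and 22.8% lower in total RNA. The members' median was log2 1.40 in nuclear and 1.45 in total RNA, beside medians of 0.28 and 0.26 over all tested genes. Relative to those medians the members stood at 1.12 and 1.19. The authors' deposited table gives q-values of 4.15e-06 (Mcm7) to 0.00586 (Mcm4) in nuclear RNA and 4.69e-06 to 0.00605, for the same genes, in total RNA. With quantile normalization 6 of the 10 were still called higher in nuclear RNA and 9 in total RNA.

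**Figure D2:**
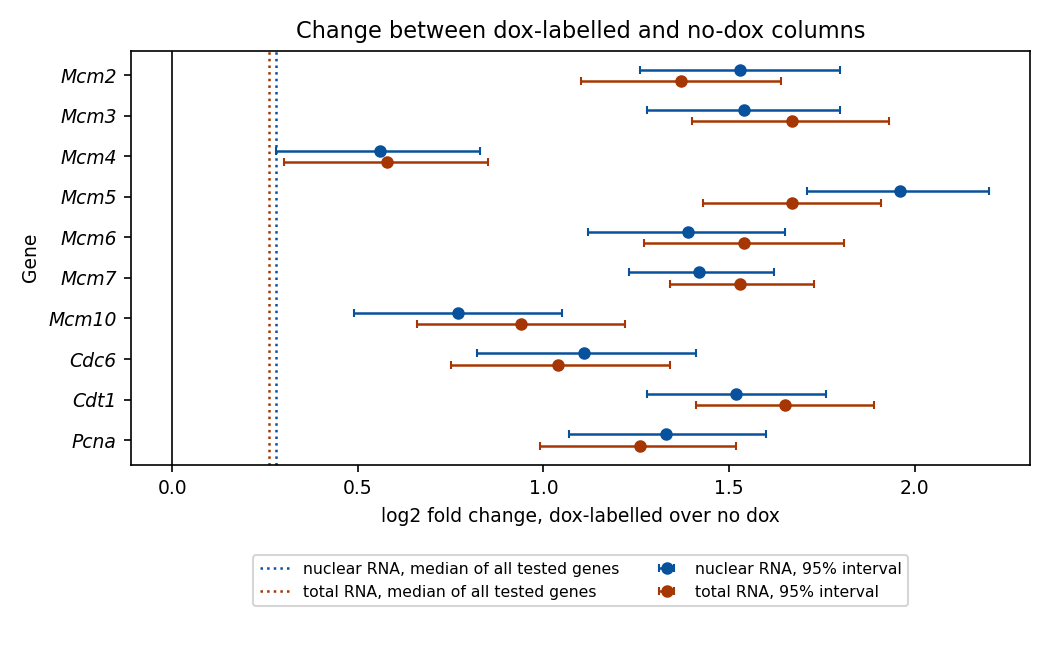
Change of each gene on the log2 scale, dox-labelled over no dox, in nuclear RNA (blue) and total RNA (brown), with 95% intervals from the limma fit; dotted lines mark the medians of all tested genes. The points run from 0.56 (Mcm4, nuclear) to 1.96 (Mcm5, nuclear), and the nuclear interval of Mcm4 reaches down to its dotted line at 0.28.

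The level and the exon length of a gene moved with its change across all tested genes, and their part in the members' change was not tested. Mcm2, Mcm3, Mcm5, Mcm7, Cdt1 and Pcna belong to the decile of genes with the highest mean level. In that decile 79.4% of genes were called higher in nuclear RNA, with a median of log2 1.37, and 74.2% in total RNA, with a median of 1.10. The nuclear changes of these 6 genes, log2 1.33 to 1.96, are thus near or above those of genes at their level. Mcm4, Mcm6 and Mcm10 belong to the next decile down, where the medians were 0.95 and 0.90. Mcm4 and Mcm10 lay below that nuclear median and Mcm6 above it. Cdc6, in the sixth decile from the lowest (median 0.32 in nuclear RNA), rose by log2 1.11.

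Exon length gave another order. It is the union of all annotated exons of a gene and can exceed the length of any single transcript. The nuclear median of all tested genes was log2 0.98 in the decile of shortest exons and -0.83 in the decile of longest exons. Mcm10, with 7692 exon bases, and Mcm2, with 6956, have the greatest exon lengths of the members. They rose among genes of like exon length whose medians were log2 -0.28 and -0.04. Mcm4, with 3589 exon bases, lay near the median of its decile, 0.59. With the length trend removed, the members' median was log2 1.33 in nuclear and 1.44 in total RNA, and all 10 were still called higher in both. Mcm4 was then at 0.36 and Mcm2 at 1.95 in nuclear RNA.

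**Figure D3:**
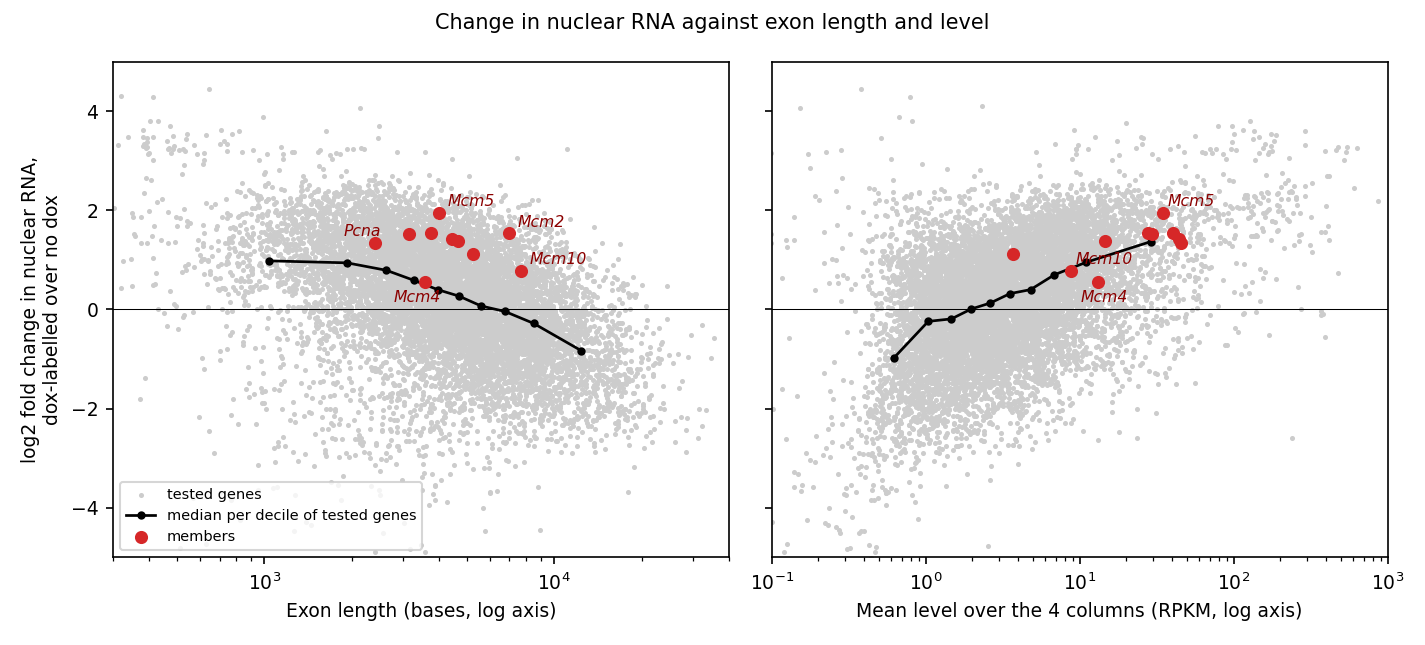
Nuclear log2 fold change of tested genes (grey) against exon length in bases (left) and against the mean level over the 4 columns in RPKM (right), both on log axes, with the 10 members in red and the median of each decile of tested genes as a black line. The line falls with length and climbs with level; Mcm4 sits on the length line and below the level line, and Mcm5 above both. Genes outside the axis ranges are not drawn.

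The nuclear and total changes of each gene were tested against each other. The difference of the dox effects, nuclear minus total, ran from log2 -0.17 (Mcm10) to 0.29 (Mcm5), with SE of 0.129 to 0.194 and limma adjusted p of 0.483 to 0.978. None of the 10 was called, and none was at an unadjusted p below 0.05. Over all tested genes limma called 0.0% higher and 0.0% lower, with 1338 at an unadjusted p below 0.05, and no alternative called a member. For Mcm5 the 95% interval of the difference was log2 -0.06 to 0.63, and for Mcm4 it was -0.41 to 0.37, so differences within these bounds could not be told from 0.

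Mcm10 alone of the 10 was called higher in nuclear than in total RNA, without dox and in the dox-labelled columns. Without dox it was at 7.89 RPKM in nuclear and 5.36 in total RNA, a ratio of 1.47 (log2 0.56, SE 0.129, limma adjusted p = 0.00433). In the dox-labelled columns the ratio was 1.31 (log2 0.39, adjusted p = 0.0296), and this call ended with 3 libraries assumed in each group (adjusted p = 0.0583). Over all tested genes the called shares were 4.01% higher and 34.7% lower in nuclear than in total RNA without dox, and 5.84% higher and 34.8% lower in the dox-labelled columns. The other 9 members were not called. The members' median was log2 -0.05 without dox and -0.01 in the dox-labelled columns, beside -0.31 and -0.32 over all tested genes. Pcna had the lowest nuclear to total value without dox, log2 -0.28 (adjusted p = 0.0867). The nuclear to total comparison rests on the scaling: with each column centred on its median, 4 members were called higher without dox and 5 in the dox-labelled columns. Centred so, the no-dox counts over all genes were 1157 higher and 1569 lower, in place of 409 and 3539; quantile normalization gave 1856 and 1802.

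Promoters were searched because licensing genes are textbook targets of E2F factors, which switch on S phase genes. RefSeq promoter windows of GRCm38.p6 (250 bases before to 50 after the start) were found for 9 of the 10 genes, all but Mcm4. The letters searched were TTTCCCGC, TTTGGCGC, TTTCGCGC and TTTGCCGC, on both strands; matches on opposite strands may overlap. Mcm5 and Mcm6 are shown because their windows hold overlapping matches on both strands, and Mcm10 because its window holds no full match. The Mcm10 window ends in TTTGGCG, which lacks only the last letter of TTTGGCGC, and the bases beyond it were not searched. All 3 are written 5′ to 3′ on the gene's strand, with the matches in capitals. Their positions are chr8:75109259-75109558 (plus), chr1:128359656-128359955 (minus) and chr2:5012742-5013041 (minus).
Mcm5: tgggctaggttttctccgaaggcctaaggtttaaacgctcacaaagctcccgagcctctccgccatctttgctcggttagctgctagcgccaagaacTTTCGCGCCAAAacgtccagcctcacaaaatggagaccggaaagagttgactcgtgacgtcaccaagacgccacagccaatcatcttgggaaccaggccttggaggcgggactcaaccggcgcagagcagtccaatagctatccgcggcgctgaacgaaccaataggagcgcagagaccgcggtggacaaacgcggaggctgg
Mcm6: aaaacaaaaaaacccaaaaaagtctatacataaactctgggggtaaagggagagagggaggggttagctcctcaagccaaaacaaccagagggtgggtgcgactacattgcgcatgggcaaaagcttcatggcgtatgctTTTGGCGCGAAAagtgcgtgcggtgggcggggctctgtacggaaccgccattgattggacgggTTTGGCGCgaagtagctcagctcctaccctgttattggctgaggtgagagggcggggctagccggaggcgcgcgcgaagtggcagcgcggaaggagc
Mcm10: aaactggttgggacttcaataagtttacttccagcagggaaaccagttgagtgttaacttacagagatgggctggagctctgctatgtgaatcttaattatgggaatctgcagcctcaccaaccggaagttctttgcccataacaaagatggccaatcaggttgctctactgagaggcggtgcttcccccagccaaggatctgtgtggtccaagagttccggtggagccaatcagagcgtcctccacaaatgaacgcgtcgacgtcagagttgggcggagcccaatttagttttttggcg

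A match was found for Cdc6, Cdt1, Mcm3, Mcm5, Mcm6 and Mcm7, 6 of 9 genes, and not for Mcm2, Mcm10 and Pcna. Of 27025 mouse genes with a window, 2.60% hold one, and of the tested genes with a window 5.35%. In Mcm5 the capitals span TTTCGCGC at 153 bases before the RefSeq start and its partner GCGCCAAA on the other strand. The RefSeq starts of the windows can differ from the GENCODE gene coordinates printed above. For Cdc6 the whole window, chr11:98907901-98908200, lies within those coordinates. The CCAAT box (CCAAT, both strands) was in the windows of 7 of 9 members and 41.1% of genes. The GC box letters (GGGCGG, both strands) were in 7 of 9 and 38.2%. Among the tested genes of the replication lists described below, 68 have a window. Of these 68, 20 held a match to the E2F letters, 33 the CCAAT box and 49 the GC box letters. The 418 tested genes with a match had a nuclear median of log2 0.30 with 44.7% called higher, and the 7389 without had 0.30 and 43.6%.

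Genes that start next to a member on the opposite strand were compared with it. Prkdc, the catalytic subunit of DNA-dependent protein kinase, starts 466 bases from Mcm4. It was at 0.612 and 1.95 RPKM in nuclear dox and no dox, and at 0.774 and 2.08 RPKM in total RNA. It fell by log2 1.67 in the dox-labelled nuclear column (3.19-fold lower, SE 0.261, limma adjusted p = 7.66e-05) and was 2.68-fold lower in total RNA (adjusted p = 0.000349), while Mcm4 rose. Prkdc has 13187 exon bases, in the longest decile of genes, whose nuclear median was log2 -0.83. Ap4m1, a subunit of a vesicle coat adaptor, overlaps the start of Mcm7 by GENCODE coordinates, at a distance between starts of -420 bases. The RefSeq start of Mcm7 behind the promoter window chr5:138171834-138172133 lies below the start of Ap4m1 at 138172002. The overlap thus depends on the annotation. Its levels were 2.19, 2.61, 2.34 and 2.53 RPKM in the same order, and it was not called (log2 -0.26 and -0.11, SE 0.256, limma adjusted p = 0.387 and 0.717). The sources used here do not say whether reads were counted by strand, so reads of any overlap cannot be told apart between Mcm7 and Ap4m1. AV099323, on the strand opposite to Pcna, starts 43 bases from it and does not overlap it.

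**Figure D4:**
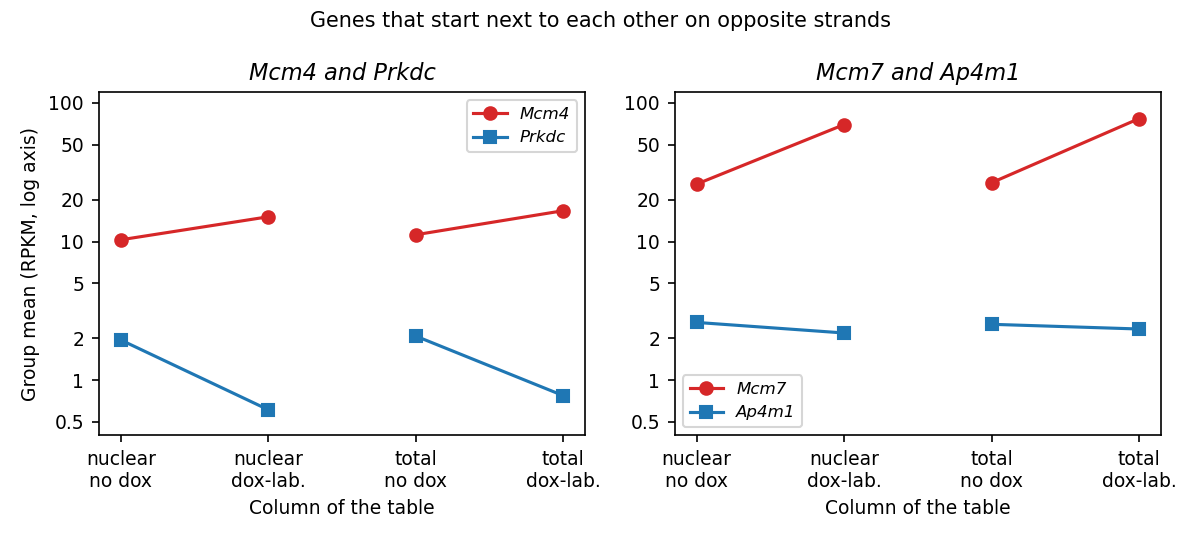
Group means in RPKM on a log axis for Mcm4 with Prkdc (left) and Mcm7 with Ap4m1 (right); lines join the no-dox and dox-labelled columns of a fraction. Mcm4 climbs from 10.3 to 15.1 RPKM in nuclear RNA while Prkdc drops from 1.95 to 0.612, and Ap4m1 stays between 2.19 and 2.61 RPKM.

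The body of Mcm7 holds the miRNA genes Mir25, Mir93 and Mir106b on its own strand. Their main mature miRNAs, from RefSeq GRCm38.p6, are shown because their genes lie within Mcm7; the seed (bases 2 to 8) is in capitals.
miR-25-3p: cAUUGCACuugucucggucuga
miR-93-5p: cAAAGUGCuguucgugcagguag
miR-106b-5p: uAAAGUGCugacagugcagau

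The seed AAAGUGC is shared by miR-93-5p and miR-106b-5p, and miR-25-3p has the seed AUUGCAC. The Mir25 row, whose gene has 84 bases, was at 1.55 RPKM in nuclear and 1.49 in total no dox, and at 0.00949 and 0.0440 RPKM in the dox-labelled columns. It was called lower in nuclear RNA (limma adjusted p = 0.0465) and not in total RNA (adjusted p = 0.156), with an SE of log2 3.00. No fold is given, since the dox-labelled means lie near the floor of the scale. Mir106b was at most at 0.0324 RPKM and not tested. The miRNA rows thus give no value that can be set beside the 2.68-fold rise of their host.

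Among other genes of the pathway, lists were described by counts and medians. Of the 83 tested genes of 10 replication lists, none of them a member, 43 passed as higher and 16 as lower in nuclear RNA (median log2 0.47), and 45 and 7 in total RNA (median 0.51). Beside them stand the shares over all tested genes, 43.1% higher and 26.3% lower in nuclear RNA and 41.5% and 22.8% in total RNA, against which the counts of every list below are to be read; small lists near those shares show nothing of their own. Of the 6 subunits of ORC, on which the ring is loaded, 1 was higher and 2 lower in nuclear RNA, with a median of log2 -0.07. Orc3 was 3.66-fold lower (adjusted p = 5.69e-06), Orc4 was 3.03-fold lower (adjusted p = 0.00101) and Orc6 rose 1.33-fold (adjusted p = 0.0351) by limma. In total RNA 2 were higher and 2 lower, at a median of log2 -0.09.

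Of 5 tested relatives and regulators of the ring 2 were higher and 2 lower in nuclear RNA, and 2 and 0 in total RNA. Mcmbp, which binds MCM proteins, rose 1.74-fold, and Mcm8 and Mcm9, a separate helicase pair, were 1.72-fold and 1.60-fold lower in nuclear RNA and not called in total RNA (limma adjusted p = 0.0579 and 0.0756). Gmnn encodes geminin, the inhibitor of CDT1, and was at 12.2 and 7.90 RPKM in nuclear dox and no dox. Its rise was 1.54-fold there and 2.35-fold in total RNA (limma adjusted p = 0.00373 and 1.95e-05). In the list of genes that degrade Cdt1, 3 of 8 were higher and 1 lower in nuclear RNA, and 5 and 0 in total RNA. Rbx1 and Ddb1, ubiquitin ligase subunits, rose 3.62-fold and 3.54-fold in nuclear RNA. Dtl, which recognises CDT1 on PCNA, was 1.57-fold lower there and not called in total RNA (limma adjusted p = 0.413).

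Of 13 tested factors that turn the loaded ring into the active helicase, 4 were higher and 6 lower in nuclear RNA (median log2 -0.35), and 4 and 2 in total RNA (median -0.01). With the length trend removed both medians turned, to 0.06 and 0.24. The GINS subunits Gins2 and Gins4 rose 4.02-fold and 2.53-fold, and Cdc7, the kinase that phosphorylates the ring, was 2.38-fold lower. Gins2 was at 20.4 RPKM in nuclear dox and 5.07 in nuclear no dox. Cdc7 was at 1.12 and 2.66 RPKM. Both act on the same loaded ring, GINS by joining it and CDC7 by modifying it.

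Fork genes that work with the clamp are given next, with nuclear folds. In the list of Okazaki fragment enzymes and PCNA partners, 9 of 11 were higher and 0 lower in nuclear RNA (median log2 1.31), and 9 and 0 in total RNA, among them Rnaseh2a (4.72-fold), Chaf1b (3.30-fold) and Fen1 (2.79-fold). For the clamp loaders and unloaders the count was 6 of 9 higher and 1 lower in nuclear RNA, and 7 and 1 in total RNA. Rfc2 and Rfc5, subunits of the loader, rose 3.59-fold and 3.23-fold, and Atad5, the unloader, was 4.95-fold lower. The 3 RPA genes, whose products coat single strands, were higher in nuclear RNA, with Rpa2 up 4.12-fold, and 2 of them in total RNA. Of 11 polymerase genes 7 were higher and 1 lower in nuclear RNA, and 5 and 1 in total RNA, with Pold2 (5.61-fold) and Pold1 (3.06-fold) up and Pola1 2.65-fold lower.

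Checkpoint, nucleotide and mitotic lists complete the description, again with nuclear folds. Among 10 fork protection and checkpoint genes 3 were higher and 3 lower in nuclear RNA (median log2 -0.09, and 0.11 with the length trend removed), and 4 and 1 in total RNA, with the kinase Atr 3.71-fold lower and Tipin up 2.05-fold. Among 7 nucleotide supply genes 5 were higher and 0 lower in each fraction, with the thymidine kinase Tk1 up 2.69-fold. Among 20 genes of G2 and M phase 12 were higher and 5 lower in each fraction (nuclear median log2 0.81), with Aurka up 3.82-fold and Mki67, Cenpf and Cenpe 5.44-fold, 4.12-fold and 3.98-fold lower. Exon length was 10061 bases for Mki67, 15433 for Cenpf, 23629 for Atr and 8813 for Pola1, against 4183 for Cdc7, 2531 for Aurka and 1896 for Pold2. For these single genes the part of exon length was not tested.

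**Figure D5:**
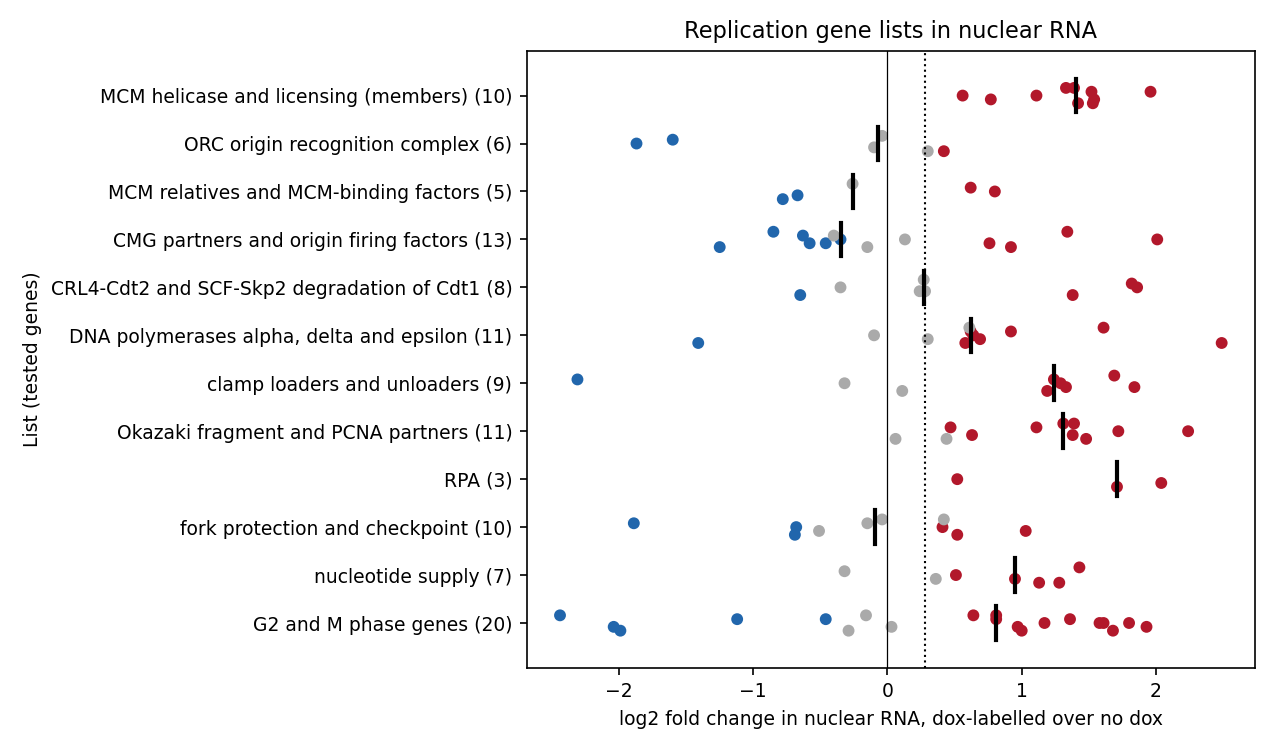
Nuclear log2 fold change of each tested gene in the 10 members and 11 related lists (number of tested genes in brackets), red for called higher, blue for called lower and grey for not called; a black bar marks the list median and the dotted line the median of all tested genes, 0.28. The members, the RPA genes, the clamp partners and the nucleotide supply genes hold no blue point. Every other list, ORC and the firing factors among them, holds both red and blue points.

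The genes most like the ring subunits were found by distance to the median log2 profile of Mcm2 to Mcm7 over the 4 columns, after the level of each gene was removed. Among the nearest were Dact2 (distance 0.064), Kif22 (0.066), U2af2 (0.071) and Hnrnpab (0.083). Dact2 was at 12.9, 4.59, 13.8 and 4.99 RPKM in the column order used above. Mcm7 itself was at a distance of 0.046, and Mcm6 at 0.101 with 16 tested genes closer. Mcm4 and Mcm10 were farthest, at 0.920 and 0.829, with 3094 and 2701 tested genes closer to the profile. The likeness rests on 4 group means.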

How the data were processed

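Per the labels' protocols, ribosomal RNA was removed and a directional kit was used. Bcl2fastq 2.17.1, TopHat and the mm10 build are named in the submitters' processing notes. Per the file headers, RPKM and ANOVA came from Partek 6.6; the deposited table holds group means as log2(RPKM + 0.001), with the authors' p-values and q-values. The deposited ratio and score columns were not used. RPKM printed here are these geometric means taken back, less the pseudocount.

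The residual SD of each gene was recovered from the p-values: with 6 degrees of freedom both comparisons gave the same SD within 0.001 for 100% of 16310 genes, with 5 or 7 for 10.63% and 12.71%. Which 2 of the 12 listed libraries were left out is not known. limma 3.58.1 (R 4.3.3) moderated the variances along a trend (prior degrees of freedom, median 7), and 5 contrasts were tested in one fit of all groups, with Benjamini-Hochberg adjustment over 10197 genes. The fit was tried on simulated data for dox against no dox in nuclear RNA (10031 genes, 200 changed). It called 28% of genes changed by log2 0.5, 74% by 1, 96% by 1.5 and 92% by 2, and 7.05% of calls were unchanged genes. The noise was drawn from the fitted model. In the data far more genes were called in nuclear RNA (43.1% higher and 26.3% lower), so these shares need not hold there.

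GENCODE M21 gave coordinates and exon lengths (19217 genes by symbol, 243 by synonym, 256 unmatched). The members and lists were chosen with earlier results of these data known. All members were named, with up to 3 called genes of largest nuclear change per list, genes against a list's majority, and the 5 genes nearest in profile, 1 of which is not reported here.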

Additional observations from a re-analysis of the deposited data

How the results depend on the processing

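Of the 10 alternative settings, those on the filter, the moderation and the library numbers left every fold change as it was. Their directions were thus fixed in advance, and only the calls could differ. Median centring shifted all genes of a comparison alike. Over all 10 settings the nuclear changes of the 10 genes kept their direction and side of the threshold in 96 of 100 values. Those in total RNA did so in 99 of 100. The exceptions came with quantile normalization of the 4 columns: 6 genes were then called higher in nuclear RNA, Mcm4 was at log2 -0.30 (nuclear) and -0.11 (total), Mcm10 at 0.00, Mcm7 at 0.19 and Pcna at 0.11 (both nuclear, no longer called). For the difference of the dox effects no member was called under any of them, and the sign turned in 8 of 100 values: with quantile normalization for Mcm2 (-0.12), Mcm5 (-0.10), Cdc6 (-0.06) and Pcna (-0.28), with median centring for Mcm4 (0.02), with the length trend removed for Pcna (-0.09), and with length and GC trends removed for Mcm4 (0.01) and Pcna (-0.02). In nuclear against total RNA without dox 83 of 100 values kept direction and side, and the sign turned in 12. There quantile normalization gave 8 genes called higher, with Mcm2 at 0.35, Mcm3 at 0.36, Mcm4 at 0.30, Mcm5 at 0.42, Mcm7 at 0.47 and Pcna at 0.21. Median centring gave 4, with Mcm2 at 0.21, Mcm3 and Mcm4 at 0.20, Mcm5 at 0.26, Mcm7 at 0.29 and Pcna at 0.04. In the dox-labelled columns 84 of 100 kept both and the sign turned in 10. Median centring gave 5 genes called higher, with Mcm3 at 0.12, Mcm4 and Mcm7 at 0.22, Mcm6 at 0.31 and Pcna at 0.16. Quantile normalization put Mcm4 at 0.11 and Mcm6 at 0.17. Without the length trend Cdt1 was at -0.02, and without length and GC trends Cdt1 was at -0.09 and Mcm6 at 0.01. With 3 libraries assumed in each group 0 were called higher, and without moderation 1 was called lower (Mcm7, -0.14). The cause was not tested. A filter at 5 RPKM left 900 genes called lower in nuclear RNA and 875 in total RNA (fewer genes tested), and up to 109 higher and 12 lower for the difference of the effects. Quantile normalization and median centring of the dox-labelled nuclear to total comparison gave 916 and 1674 genes higher and 1087 and 1381 lower. The median of all tested genes in nuclear RNA, 0.28, was 0.09 with quantile normalization, 0.14 with median centring and 0.79 at 5 RPKM.

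No paired analysis was possible because the table holds group means and no values of single libraries; leaving out each library in turn was not run for the same reason. Cdc6 had the fewest estimated reads per library of the members.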
